A study of Mus musculus with 8 samples.

Results

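The collagen chain genes encode the polypeptides that wind in threes into collagen, the main structural protein of the extracellular matrix. They were taken as every gene whose single platform symbol has the form of a collagen chain (Col, a type number, a and a chain number), and each was represented by its brightest probe set by mean over all arrays. The rule found 42 genes, with 82 probe sets, among 18193 named genes. By the known structure of the proteins, 11 are fibrillar chains, 8 are basement membrane chains and 23 are others. The basement membrane class holds the 6 chains of type IV together with Col15a1 and Col18a1. The others are 9 fibril-associated chains (FACIT), 5 beaded filament chains of type VI, 4 transmembrane chains, 3 short chains that form networks, the anchoring fibril chain Col7a1, and Col26a1.

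Total RNA of mouse retina at postnatal day 40 was hybridised to Affymetrix 3' expression arrays, 1 array a sample. The mice had both, 1 or neither copy of Nxnl1, which encodes rod-derived cone viability factor: 3 arrays are labelled wild type, 2 heterozygous and 3 homozygous null. All groups are labelled with the strain BALB/c AJ, and per the labels the retinas had been dissected away from the retinal pigment epithelium (RPE), the cell layer that lies behind the photoreceptors. The labels do not tell whether a sample is 1 animal, 1 eye or a pool, so the p-values speak only of how far these samples spread, and that spread may be technical. Levels are log2 values, and the arrays of a group are always listed in the order of their replicate numbers.

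The neural retina itself holds little fibrous collagen. Type IV networks lie in the inner limiting membrane, in the walls of retinal vessels and in Bruch's membrane under the RPE, and they also build the lens capsule. Types II, IX and XI form the fibrils of the vitreous, types I, III and V those of connective tissue such as the sclera, and type VIII builds the hexagonal lattice of Descemet's membrane at the back of the cornea and also occurs in vessel walls. A retina sample can therefore carry collagen transcripts of its vessels and of the neighbouring tissues. In whole tissue, fewer cells of a type and less RNA per cell cannot be told apart.

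The target gene went against the label on 2 arrays. Nxnl1 read 9.22, 8.87 and 8.65 on the wild-type arrays, 8.65 and 6.75 on the heterozygous ones, and 6.13, 8.76 and 6.13 on the homozygous ones. The array labelled homozygous 2 was thus at the wild-type level and that labelled heterozygous 2 below every wild-type array, and every direction given here for a genotype holds for arrays as labelled. The actin control signal at the 5' end minus that at the 3' end, which becomes more negative as RNA degrades, ran from -1.81 (wild type 1) and -1.74 (homozygous 1) to -0.69 (homozygous 2). Markers of the labelled tissue were present on every array, with a summed linear level of 92935 to 102970 over 8 measured rod genes and of 28358 to 30796 over 10 Mueller glia genes.

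The members spread somewhat more between arrays than genes at large. The median SD over the 8 arrays was 0.17 for the collagen genes and 0.14 for all genes. It was 0.22 in the fibrillar class, 0.20 in the basement membrane class and 0.15 in the others. A range of at least 0.5 log2 units was seen for 20 of 42 members and for 33.5% of all genes. A range of at least 1 was seen for 7 of 42, Col8a2, Col3a1, Col6a1, Col24a1, Col4a4, Col8a1 and Col4a5, and for 3.31% of all genes. The heterozygous array 1 held the highest value of 12 members and homozygous array 3 that of 11, where they held the highest value of 8.5% and 8.97% of all genes. Homozygous array 1 was highest for 5 members, but for 34.7% of all genes. Wild-type array 1 was lowest for 11 members, 5 of them fibrillar, and for 10.6% of all genes.

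**Figure D1:**
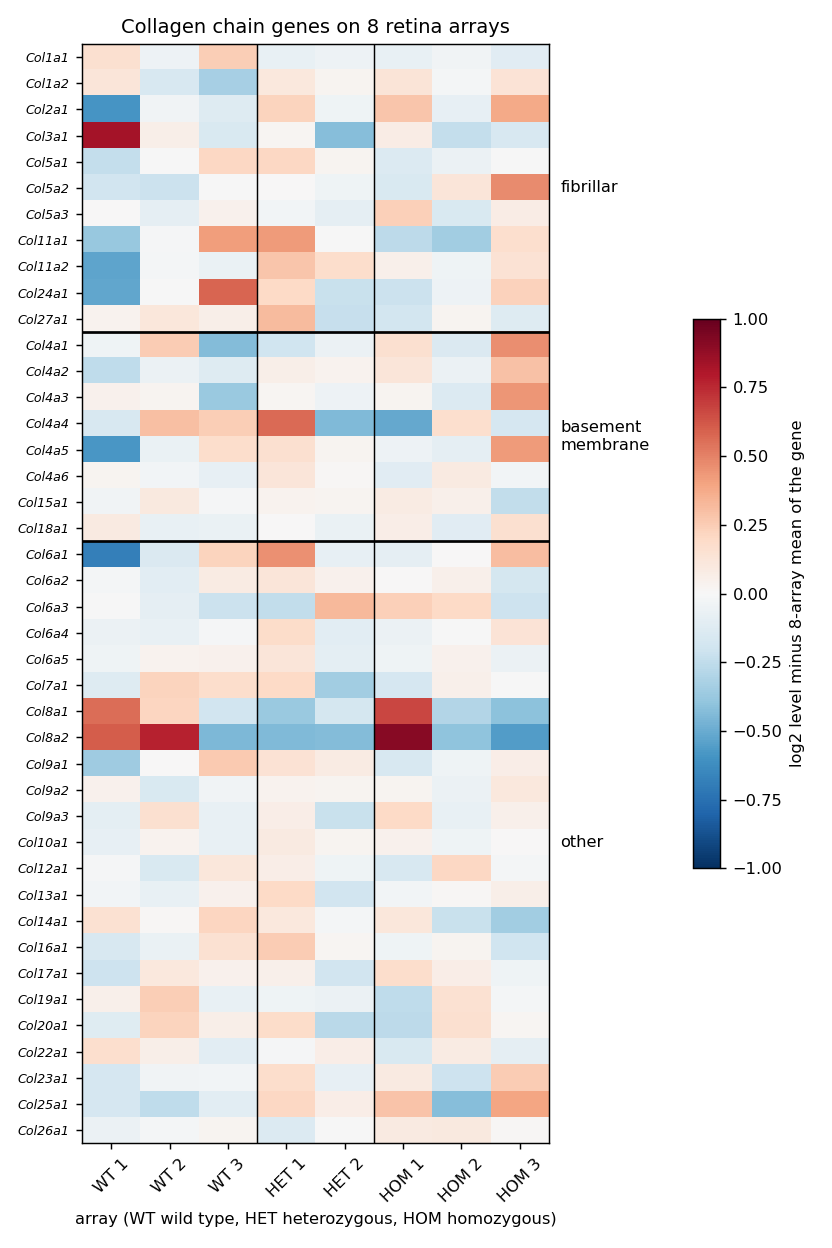
Log2 level of each of the 42 collagen chain genes on the 8 arrays, shown as the difference from the gene's 8-array mean (colour scale, -1 to 1) with genes in rows by class and arrays in columns by label. The type VIII chains Col8a1 and Col8a2 are red on wild-type arrays 1 and 2 and homozygous array 1, Col3a1 is darkest on wild-type array 1, and in most rows the colours differ between arrays of the same label.

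The first comparison set the homozygous null against the wild type. The Y-linked gene Eif2s3y read 3.46 and 3.32 on wild-type arrays 1 and 2. It read 7.07 to 9.14 on wild-type array 3 and on every heterozygous and homozygous array. Genotype label and sex therefore cannot be fully told apart in the comparisons of either mutant label with the wild type. No collagen gene passed the threshold (adjusted p of 0.05 over 45037 probe sets, limma's moderated test), where 0% of all probe sets did. The target gene Nxnl1 itself thus did not pass either. The smallest adjusted p of a member was 0.9999. At an unadjusted p under 0.05, 2 members were higher, Col2a1 and Col4a2, and 0 were lower, where 0.621% and 0.22% of all genes were. An ordinary test without moderation put 0 members under that unadjusted level. The groups did not overlap for 1 member, the fibrillar chain Col27a1, with the homozygous arrays lower. Across all genes 3.25% did not overlap with the homozygous arrays higher and 1.58% with them lower. The difference was above 0 for 23 of 42 members, against 60.5% of all genes, and the median was 0.03 for the members and 0.02 for all genes.

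Among the basement membrane chains, 6 of 8 lay above 0, with a class median of 0.13. Within it the type IV chains had a median of 0.22, and 5 of 6 were above 0. None of the 6 passed the adjusted test. Homozygous array 3 was the highest array for Col4a1, Col4a2, Col4a3 and Col4a5.

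Col4a1 and Col4a2 form together the type IV trimer found in nearly all basement membranes. Col4a1 read 8.65, 8.94 and 8.26 on the wild-type arrays, 8.49 and 8.63 on the heterozygous and 8.85, 8.55 and 9.16 on the homozygous arrays. The groups overlapped, and homozygous minus wild type gave a log2 difference of 0.24 (SE 0.20), which was 0.08 without homozygous array 3 and 0.06 without wild-type array 3. Its second probe set differed by 0.22.

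Col4a2 read 7.59, 7.78 and 7.72 in wild type, 7.90 and 7.88 in heterozygous and 7.97, 7.78 and 8.14 in homozygous samples. Both heterozygous arrays lay above every wild-type array, and homozygous array 2 sat at the highest wild-type level. The group means were 7.70 ± 0.10 (SD, n = 3) and 7.96 ± 0.18 (SD, n = 3) in wild type and homozygous. The log2 difference was 0.27 (SE 0.11, limma unadjusted p = 0.0448, adjusted p = 0.9999), and 0.19 (SE 0.13) for heterozygous against wild type. It was 0.36 without the 2 arrays whose Nxnl1 level goes against the label, and 0.18 without homozygous array 3.

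Col4a3, Col4a4 and Col4a5 form the second type IV network, known from the glomerulus, the inner ear and parts of the eye including the lens capsule. Col4a3 read 8.25, 8.24 and 7.83 in wild type, 8.23 and 8.15 in heterozygous and 8.23, 8.07 and 8.65 in homozygous samples, a log2 difference of 0.21 (SE 0.17) for homozygous against wild type. That difference was 0.05 without homozygous array 3 and 0.07 without wild-type array 3, the lowest array. Col4a4 went the other way, with a log2 difference of -0.30 (SE 0.27). It read 7.50, 7.95 and 7.90 in wild type, 8.22 and 7.22 in heterozygous and 7.15, 7.82 and 7.49 in homozygous samples, so that the 2 heterozygous arrays held its highest value and nearly its lowest.

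Col4a5 read 5.98, 6.49 and 6.74 in wild type, 6.72 and 6.59 in heterozygous and 6.51, 6.47 and 6.98 in homozygous samples. Wild-type array 1 stood below the 7 others, and without it the log2 difference of 0.25 (SE 0.21) became 0.04. Its second probe set differed by -0.08. Col4a6, which pairs with Col4a5 in other membranes, ranged from 5.04 to 5.28 over all 8 arrays.

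Col18a1, whose C-terminal fragment is endostatin, is a chain of vessel and epithelial basement membranes. It read 7.98, 7.81 and 7.82 in wild type, 7.89 and 7.82 in heterozygous and 7.96, 7.77 and 8.05 in homozygous samples. Its SD over the 8 arrays was 0.10, lower than that of most genes, and homozygous minus wild type gave 0.06 (SE 0.10). Its second probe set gave 0.23 (SE 0.10, limma unadjusted p = 0.0557, adjusted p = 0.9999). Col15a1, its closest relative, ranged from 4.89 to 5.23 and differed by -0.06 (SE 0.11).

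**Figure D2:**
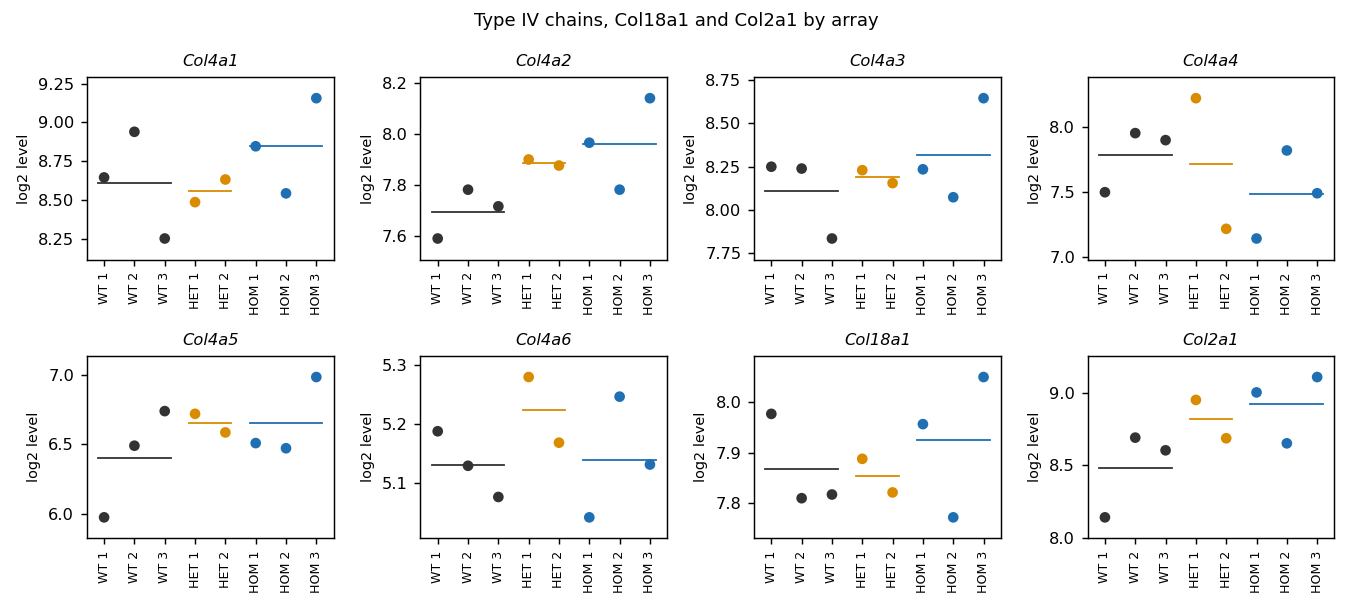
Log2 level (vertical axis, own scale for each gene) of the 6 type IV chains, Col18a1 and Col2a1 on each array, grouped as wild type (WT, dark), heterozygous (HET, orange) and homozygous (HOM, blue), with a line at each group mean. Homozygous array 3 holds the highest point of Col4a1, Col4a2, Col4a3, Col4a5, Col18a1 and Col2a1, and the groups overlap in each panel other than heterozygous against wild type for Col4a2.

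Markers of vessels and lens were set beside the type IV chains array by array, as medians of each gene's difference from its own 8-array mean. The type IV median was 0.36 on homozygous array 3 and between -0.10 and 0.09 on the 7 others. On homozygous array 3 the median of 22 endothelium and pericyte genes was -0.08, the lowest but 1 of the 8 arrays, and that of 20 lens genes was -0.01. The vessel genes stood highest on homozygous array 1, with a median of 0.23, where that of the type IV chains was -0.01. Lens genes were highest on homozygous array 1 (1.29) and wild-type array 1 (1.04). Summed linear levels of the lens list ran from 819 to 8474 in wild type, 874 to 5330 in heterozygous and 790 to 12790 in homozygous samples, and those of the vessel list from 5143 to 5615, 5264 to 5472 and 4927 to 6850. Members of a list did not all follow its median. On homozygous array 3 the lens sum was 4259, against 790 to 1206 on the 4 arrays of lowest sum, with Cryaa at 10.28, and the vessel receptor gene Flt1 had its highest value there, 8.86. The part of vessel and lens tissue in the type IV values was not tested.

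The fibrillar chains showed no common direction, with 5 of 11 above 0 for homozygous against wild type and a median of -0.03. Within the class the vitreous chain Col2a1 had the largest difference above 0 for homozygous and Col11a2 for heterozygous against wild type, and wild-type array 1 was the lowest array of both.

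Col2a1, the type II chain of cartilage and vitreous, read 8.14, 8.69 and 8.60 in wild type, 8.95 and 8.69 in heterozygous and 9.01, 8.65 and 9.11 in homozygous samples. Wild-type array 1 was lowest, and homozygous array 2 lay within the wild-type range. The wild-type mean was 8.48 ± 0.30 (SD, n = 3) and the homozygous mean 8.92 ± 0.24 (SD, n = 3), a log2 difference of 0.44 (SE 0.18, limma unadjusted p = 0.0378, adjusted p = 0.9999). It was 0.58 without the 2 arrays of discordant Nxnl1, 0.28 without wild-type array 1 and 0.23 without the 2 arrays of lowest actin difference (wild type 1 and homozygous 1).

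Col11a2, a type XI chain that sits in the core of type II fibrils, read 6.13, 6.63 and 6.59 in wild type, 6.93 and 6.83 in heterozygous and 6.70, 6.61 and 6.80 in homozygous samples. The heterozygous arrays lay above all others. The log2 difference of heterozygous against wild type was 0.43 (SE 0.16, limma unadjusted p = 0.0273, adjusted p = 0.9999), and 0.27 without wild-type array 1. For homozygous against wild type it was 0.26 (SE 0.14), and 0.10 without that array.

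Col11a1, the other main type XI chain, read 4.37, 4.73 and 5.16 in wild type, 5.17 and 4.74 in heterozygous and 4.48, 4.40 and 4.91 in homozygous samples. Its spread within wild type spanned nearly the whole range, and the homozygous difference was -0.16 (SE 0.23) against wild type and -0.36 (SE 0.25) against heterozygous. The first was 0.05 without wild-type array 3, and the second was -0.14 without heterozygous array 1 and -0.57 without heterozygous array 2. Col24a1, a minor fibrillar chain, read 5.86, 6.38 and 6.96 in wild type, 6.58 and 6.16 in heterozygous and 6.17, 6.33 and 6.61 in homozygous samples. Both the lowest and the highest value of Col24a1 were thus wild type, and its homozygous difference was -0.03 (SE 0.26).

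Col3a1, Col1a1 and Col1a2 are the chains of the coarse fibrils of connective tissue. Col3a1 read 4.50, 3.72 and 3.52 in wild type, 3.68 and 3.24 in heterozygous and 3.74, 3.43 and 3.50 in homozygous samples. In this probe set, the brightest, wild-type array 1 stood alone at the top. The log2 difference was -0.35 (SE 0.25) for homozygous and -0.45 (SE 0.28) for heterozygous against wild type, and without wild-type array 1 these were -0.06 and -0.16.

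Decorin (Dcn), a proteoglycan that coats type I and III fibrils, read 7.03 on wild-type array 1 and 4.92 to 5.54 on the 7 others. The stromal matrix list as a whole did not share that peak. Of its 15 genes, 5 were highest on wild-type array 1 and 5 on homozygous array 1, where 15.7% and 34.7% of all genes were. Several transcripts of skeletal muscle were also highest on wild-type array 1. Of 18 striated muscle genes, 12 were highest there, where 15.7% of all genes were. The list was chosen after the values were seen, so its share is a description without a test. Myh1, Myh4, Ryr1, Mylk2, Actn3 and Pygm were highest on other arrays. Tnnc2, a fast muscle troponin, read 7.79 on wild-type array 1 and 5.38 or less elsewhere, and the myosin light chain Myl1 read 6.65 against 4.01 or less. The summed linear level of the muscle list ran from 983 to 2050 in wild type, 1051 to 1081 in heterozygous and 1002 to 1353 in homozygous samples, and that of 15 stromal matrix genes from 1118 to 1436, 1168 to 1195 and 1157 to 1419. Their part in the Col3a1 values was not tested.

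Neither type I chain stood out on that array alone. Col1a1 read 4.76, 4.55 and 4.85 in wild type, 4.53 and 4.56 in heterozygous and 4.53, 4.57 and 4.50 in homozygous samples. Col1a2 read 6.96, 6.68 and 6.51 in wild type, 6.94 and 6.87 in heterozygous and 6.97, 6.82 and 6.98 in homozygous samples. The log2 differences of homozygous against wild type were of opposite sign, -0.19 (SE 0.10) for Col1a1 and 0.21 (SE 0.13) for Col1a2, although the type I molecule is built of both chains. In the brightest probe sets wild-type array 3 held the highest Col1a1 and the lowest Col1a2 value. The second Col1a1 probe set was instead highest on heterozygous array 1, at 3.64. The next brightest Col1a2 probe set was lowest on wild-type array 1, at 5.04, and read 5.23 on wild-type array 3. The sign of the homozygous difference was the same in all probe sets of each gene.

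**Figure D3:**
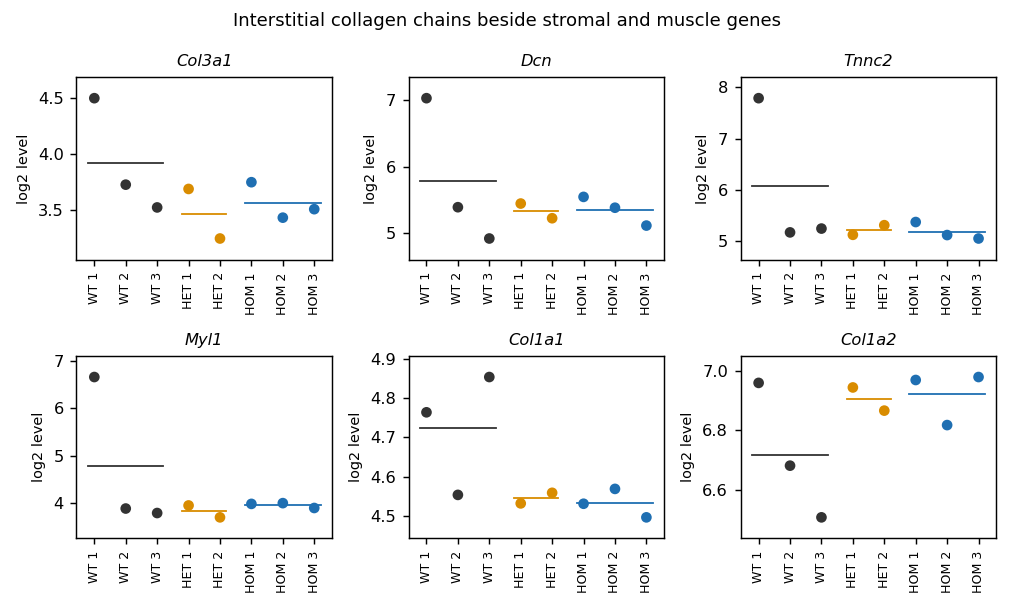
Log2 level (vertical axis, own scale for each gene) of Col3a1, Col1a1 and Col1a2 with decorin (Dcn) and the muscle genes Tnnc2 and Myl1 on each array, grouped as wild type (WT, dark), heterozygous (HET, orange) and homozygous (HOM, blue), with a line at each group mean. Each gene is shown by its brightest probe set. Col3a1, Dcn, Tnnc2 and Myl1 share a single high point, wild-type array 1, where Col3a1 read 4.50 and Dcn 7.03, and Col1a1 and Col1a2 do not.

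Type V chains nucleate type I fibrils. Col5a1 read 6.71, 6.95 and 7.16 in wild type, 7.16 and 6.98 in heterozygous and 6.82, 6.89 and 6.95 in homozygous samples, with a log2 difference of -0.06 (SE 0.13). Col5a2 read 4.82, 4.80 and 5.01 in wild type, 5.02 and 4.97 in heterozygous and 4.86, 5.13 and 5.49 in homozygous samples. Homozygous array 3 stood apart for Col5a2, and the log2 difference of homozygous minus wild type was 0.28 (SE 0.16) with it and 0.12 without it. The second probe set of Col5a2 differed by -0.04. Col5a3 and Col27a1, the fibrillar chains not given array by array, differed by 0.07 and -0.16.

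The 23 other chains had a median of 0.03 for homozygous against wild type, with 12 above 0. The type VIII chains Col8a1 and Col8a2 had the 2 largest SDs over the arrays of all members, and the arrays on which they were high carried different genotype labels. Col8a2 had a larger SD over arrays than 99.8% of all genes and Col8a1 than 98.9%.

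The upstream sequences of both genes are given because the 2 chains moved together over the arrays. Of the 42 members, 33 have a promoter in the RefSeq table used (assembly GRCm38.p6). The 250 bases before the annotated start are printed 5' to 3' on the gene's strand, with capitals at each match to the GC box GGGCGG on either strand. The Col8a1 window is chr16:57754738-57754987 on the minus strand and the Col8a2 window chr4:126286544-126286793 on the plus strand.
Col8a1: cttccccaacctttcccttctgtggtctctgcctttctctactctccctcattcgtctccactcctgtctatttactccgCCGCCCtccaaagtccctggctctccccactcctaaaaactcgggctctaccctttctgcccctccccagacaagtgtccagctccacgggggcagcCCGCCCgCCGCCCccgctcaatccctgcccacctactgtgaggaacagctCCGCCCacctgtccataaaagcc
Col8a2: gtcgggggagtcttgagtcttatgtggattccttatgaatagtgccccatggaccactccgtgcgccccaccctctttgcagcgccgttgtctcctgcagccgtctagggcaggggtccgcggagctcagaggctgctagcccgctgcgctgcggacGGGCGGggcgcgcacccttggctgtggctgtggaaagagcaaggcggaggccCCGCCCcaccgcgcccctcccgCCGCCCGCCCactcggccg
Each window held 4 matches. In Col8a1 all lay on the opposite strand, beginning 170, 73, 66 and 23 bases before the start. In Col8a2 1 lay on the same strand at 93 bases, and those at 41, 19 and 15 bases lay on the opposite strand, the last pair overlapping. The GC box was found in 32.7% of 32851 windows of this length. The GC content was 60.8% for Col8a1 and 70.0% for Col8a2, against a median of 52.4% over all windows. The TATA box TATAAA (in 12.4% of all windows), the CCAAT box (33.8%), the E-box CATGTG (12.3%) and the site TAATCC of OTX-type homeodomain proteins (6.25%) were searched on both strands and had no match in either window. A match is a description of the sequence and not evidence of binding.

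Col8a2 read 6.53, 6.69 and 5.48 in wild type, 5.49 and 5.50 in heterozygous and 6.84, 5.52 and 5.37 in homozygous samples. Its values fell into a high set, wild-type arrays 1 and 2 and homozygous array 1, at 6.53 or above, and a low set of the 5 others, at 5.52 or below. Col8a1 read 8.21, 7.87 and 7.46 in wild type, 7.28 and 7.47 in heterozygous and 8.32, 7.36 and 7.24 in homozygous samples. The same 3 arrays were highest, 0.40 or more above the others. Of the other 2 probe sets of Col8a1, 1 followed the brightest over the arrays (r = 0.908, description over 8 arrays) and the dimmest less so (r = 0.506).

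Because the high set held arrays of both homozygous and wild-type label, neither chain differed by genotype beyond the spread. Homozygous minus wild type gave a log2 difference of -0.32 (SE 0.43) for Col8a2 and -0.21 (SE 0.29) for Col8a1, and for Col8a2 it ran from -0.79 without homozygous array 1 to -0.05 without homozygous array 3. Heterozygous against wild type gave -0.74 (SE 0.48) and -0.47 (SE 0.33), the 2 lowest values among the members in that comparison, with no heterozygous array in the high set.

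Some transcripts typical of the RPE moved with the type VIII chains on these arrays, although the labels describe the tissue as free of it. Of 19 genes of a pigment epithelium and choroid list, 6 (31.6%) had all 3 of those arrays above the 5 others, which holds for 5.47% of all genes and for 3 of 42 collagen genes (7.14%), the third being Col3a1 with a gap of 0.04. The 3 arrays were picked from the type VIII values, so these shares are a description without a test. The 6 were Rpe65, Rgr, Lrat, Rdh5, Ttr and Tyrp1. The rest of the 19 did not follow. Among them, Otx2 was lowest on homozygous array 1 (11.47), Best1 highest on homozygous array 2 (6.79) and Serpinf1 highest on heterozygous array 1 (7.67). Rdh5, a retinol dehydrogenase of the visual cycle, read 9.54, 9.50 and 8.76 in wild type, 8.53 and 8.56 in heterozygous and 9.30, 9.11 and 8.30 in homozygous samples. Rpe65, the visual cycle isomerase, read 10.20, 10.48 and 9.69, then 9.25 and 9.52, then 10.04, 10.02 and 9.16. The match was not complete, since Rpe65 was as high on homozygous array 2 as on homozygous array 1 and Col8a2 was low there.

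The summed linear level of the pigment epithelium list ran from 20900 to 26547 in wild type, 19160 to 19308 in heterozygous and 17663 to 23044 in homozygous samples. That sum is not of pigment epithelium alone. It includes Rlbp1, which is also in the Mueller glia list, and Bsg, which was lowest on wild-type array 1 (11.76). Of 12 measured genes of cornea, iris and ciliary body, 0 had the same 3 arrays above the others, and their sums ran from 539 to 625, 539 to 543 and 579 to 598. The Y-linked gene Eif2s3y was at 3.46 on wild-type array 1, at 3.32 on wild-type array 2 and at 7.07 to 9.14 elsewhere, 7.38 on homozygous array 1 among them. The actin difference was -1.81, -1.04 and -1.74 on the 3 arrays. The part of tissue makeup, RNA quality and sex in the type VIII values was not tested.

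Over all 18193 genes, those most like Col8a2 across the 8 arrays, among genes with a range of at least 0.5, were Ctxn3 (r = 0.974), Cpxm2 (r = 0.968) and the potassium channel gene Kcnj13 (r = 0.962). The rest of the first 8 were Perp (r = 0.959), the keratin gene Krt8 (0.958), the retinol carrier receptor gene Stra6 (0.957), Rsph9 (0.955) and Dbi (0.952). Since the values of Col8a2 fall in 2 sets, r serves here only to rank likeness. Kcnj13 read 8.16, 8.17 and 7.53 in wild type, 7.44 and 7.31 in heterozygous and 8.54, 7.69 and 7.31 in homozygous samples.

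**Figure D4:**
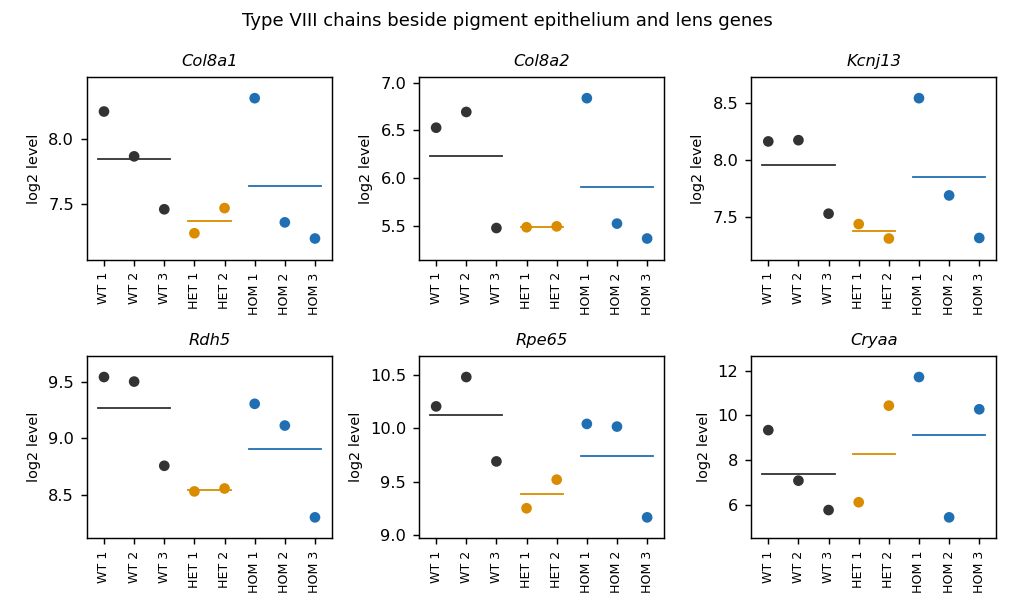
Log2 level (vertical axis, own scale for each gene) of Col8a1 and Col8a2 with Kcnj13, Rdh5, Rpe65 and the lens crystallin Cryaa on each array, grouped as wild type (WT, dark), heterozygous (HET, orange) and homozygous (HOM, blue), with a line at each group mean. Col8a2 lies at 6.53 or above on wild-type arrays 1 and 2 and homozygous array 1 and at 5.52 or below on the rest, Rdh5 and Rpe65 are also high on homozygous array 2, and Cryaa is also high on heterozygous array 2 and homozygous array 3.

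Lens transcripts followed the type VIII chains only in part. Of 20 lens genes, 1 (5%), Bfsp1, was higher on wild-type arrays 1 and 2 and homozygous array 1 than on the 5 others. The share of all genes was 5.47%. Cryaa, the alpha-crystallin of lens fibres, read 9.34, 7.09 and 5.77 in wild type, 6.12 and 10.44 in heterozygous and 11.72, 5.45 and 10.28 in homozygous samples. It was highest on homozygous array 1, where both type VIII chains were high too, but also high on heterozygous array 2 and homozygous array 3, where both were low. Not all lens genes moved like Cryaa. Mip ranged only from 4.82 to 5.17 and Foxe3 from 5.44 to 5.71, and Cryga was high on wild-type array 1 alone (8.57, against 4.21 or less).

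Among the beaded filament chains, Col6a1 had the widest range. It read 7.80, 8.34 and 8.71 in wild type, 8.94 and 8.41 in heterozygous and 8.40, 8.49 and 8.80 in homozygous samples. Wild-type array 1 was lowest, as for Col2a1 and Col4a5, and the log2 difference of 0.28 (SE 0.24) for homozygous against wild type was 0.04 without it. Col6a2, its partner in type VI microfibrils, read 7.33, 7.25 and 7.44 in wild type, 7.48 and 7.40 in heterozygous and 7.36, 7.40 and 7.18 in homozygous samples. Its range over all arrays was 0.30, and the difference was -0.03 (SE 0.10).

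The FACIT chains, which decorate the surface of fibrils, had a median of -0.05 for homozygous against wild type. Col9a1, the type IX chain of the vitreous, read 9.45, 9.81 and 10.07 in wild type, 9.95 and 9.89 in heterozygous and 9.64, 9.76 and 9.87 in homozygous samples. Its homozygous arrays all lay below the heterozygous ones, and the difference from wild type was -0.01 (SE 0.15). Col9a2 read 5.03, 4.83 and 4.95 in wild type, 5.02 and 5.01 in heterozygous and 5.01, 4.93 and 5.09 in homozygous samples, a difference of 0.07 (SE 0.09).

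Col14a1, a fibril-spacing chain of dense connective tissue, read 4.51, 4.37 and 4.57 in wild type, 4.46 and 4.34 in heterozygous and 4.47, 4.14 and 4.01 in homozygous samples. Homozygous array 1 overlapped the wild-type range, and the difference was -0.28 (SE 0.13, limma unadjusted p = 0.0647, adjusted p = 0.9999). Col16a1, another FACIT chain, read 6.90, 6.99 and 7.21 in wild type, 7.31 and 7.08 in heterozygous and 7.01, 7.08 and 6.86 in homozygous samples. Its difference of homozygous against heterozygous was -0.21 (SE 0.13), with -0.09 without heterozygous array 1 and -0.33 without heterozygous array 2.

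Col25a1, a transmembrane collagen of neurons, read 7.12, 7.03 and 7.18 in wild type, 7.50 and 7.36 in heterozygous and 7.57, 6.86 and 7.68 in homozygous samples. The array labelled homozygous 2, where Nxnl1 was at the wild-type level, was lowest, and the other 2 homozygous arrays were highest. Homozygous minus wild type gave a log2 difference of 0.26 (SE 0.20), with 0.52 without the 2 arrays of discordant Nxnl1 (limma adjusted p = 0.976) and 0.11 without homozygous array 3. The second probe set of Col25a1 differed by -0.06 and ran opposite over the arrays (r = -0.729, description over 8 arrays). Col26a1 read 3.74, 3.77 and 3.82 in wild type, 3.66 and 3.79 in heterozygous and 3.88, 3.89 and 3.80 in homozygous samples, all near the lower end of the scale.

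The members not given array by array were Col5a3, Col27a1, Col4a6, Col15a1, Col6a3, Col6a4, Col6a5, Col7a1, Col9a3, Col10a1, Col12a1, Col13a1, Col17a1, Col19a1, Col20a1, Col22a1 and Col23a1. Their differences of homozygous against wild type lay between -0.16 for Col27a1 and 0.18 for Col6a3. Their SD over the arrays lay between 0.06 for Col10a1, the steadiest member, and 0.23 for Col6a3. Of all members, 18 had a mean below 6.19, the median of all probe sets, and no detection calls were used, so a level at the lower end of the scale is not evidence of a transcript.

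**Figure D5:**
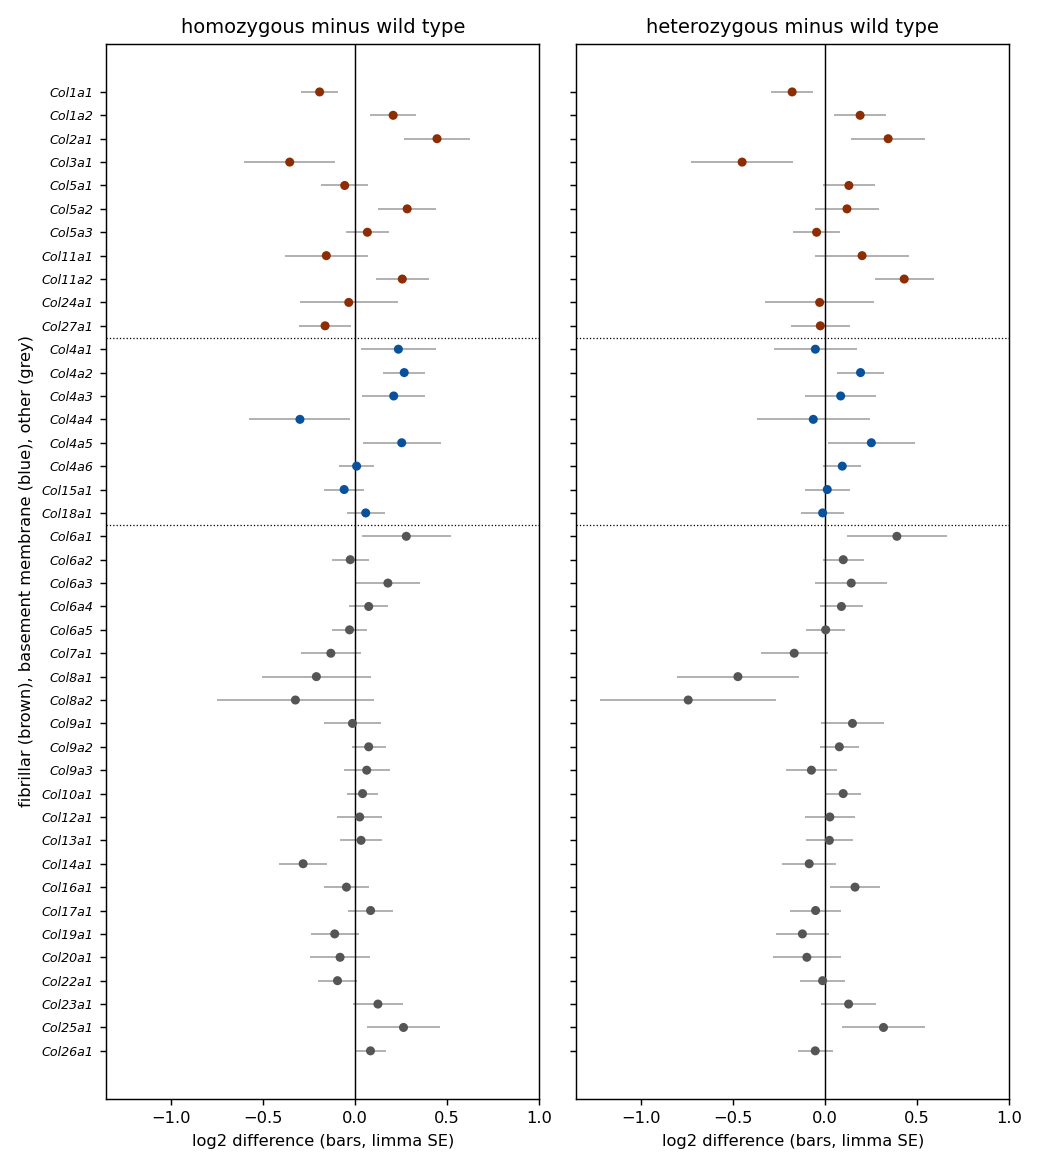
Log2 difference (horizontal axis) of each of the 42 collagen genes with its limma standard error (bars), for homozygous minus wild type and heterozygous minus wild type, with fibrillar chains in brown, basement membrane chains in blue and others in grey. Both panels share the wild-type arrays. The differences scatter around 0, from -0.35 to 0.44 in the first panel and from -0.74 to 0.43 in the second.

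For heterozygous against wild type, 0 members passed the adjusted test (0% of all probe sets). Col11a2 alone had an unadjusted limma p under 0.05, with the heterozygous arrays higher, and 0 members were lower, where 0.451% and 0.72% of all genes were. The ordinary test put 0 members under that level. The groups did not overlap for 3 members, Col4a2, Col11a2 and Col25a1, all higher in heterozygous samples, against 6.95% of genes higher and 8.03% lower. The difference was above 0 for 24 of 42 members (47.6% of all genes), with a median of 0.02 for members and -0.01 for all genes. Without the 2 arrays of discordant Nxnl1, which leaves 1 heterozygous array, the members' median was 0.13.

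For homozygous against heterozygous, 0 members passed (0% of all probe sets), and 0 had an unadjusted limma p under 0.05 in either direction, where 0.632% of genes were higher and 0.176% lower. The ordinary test put 1 member under that level, Col26a1 (unadjusted p = 0.0482 in the limma fit without moderation). The groups did not overlap for Col26a1, which was higher in homozygous samples, and for Col5a1, Col9a1 and Col11a2, which were lower. Of all genes, 7.58% did not overlap with the homozygous arrays higher and 3.42% with them lower. The difference was above 0 for 20 of 42 members, against 63.7% of all genes.

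Chains that assemble into 1 molecule or 1 kind of fibril were compared over the 8 arrays in 6 pairs, and no correlation passed the adjusted threshold. Col4a1 and Col4a2 had a Pearson r of 0.62 (exact permutation p = 0.0991, adjusted p = 0.297) and a Spearman rho of 0.43 (exact permutation p = 0.287). Without the 2 arrays farthest from the Col4a1 median r was 0.08, so the relation rested on those arrays, and without homozygous array 3 alone it was 0.27. Col1a1 and Col1a2 had an r of -0.58 (exact permutation p = 0.081, adjusted p = 0.297) and a rho of -0.69 (exact permutation p = 0.0694). Leaving out the 2 farthest arrays, which were wild type 1 and wild type 3, gave an r of -0.70. Without wild-type array 1 alone r was -0.87 (exact permutation, adjusted p = 0.0298) and rho -0.89. Without wild-type array 3 alone r was 0.10 and rho -0.54. The relation was tested for the brightest probe sets only. Other probe sets followed the brightest weakly over the 8 arrays, with r of 0.36 for Col1a1 and 0.045 to 0.17 for Col1a2 (description).

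The remaining pairs had r of 0.39 for Col1a1 and Col3a1, 0.23 for Col5a1 and Col5a2, 0.19 for Col6a1 and Col6a2 and -0.12 for Col9a1 and Col9a2. Their rho values were -0.02, 0.24, 0.48 and -0.12. The exact permutation p of r was 0.33, 0.583, 0.644 and 0.772, with adjusted p between 0.659 and 0.772, and that of rho 0.977, 0.582, 0.243 and 0.793. Without the 2 farthest arrays r became -0.30, 0.08, -0.22 and 0.24, so the sign turned for 3 of these pairs. Wild-type array 1 set the Col1a1 and Col3a1 value, which was -0.13 without it, and 0.82 without wild-type array 3. For Col6a1 and Col6a2, r was -0.10 without heterozygous array 1 and 0.68 without homozygous array 3. Without that array rho was 0.96 (exact permutation p = 0.00278, adjusted p = 0.0167), past the threshold that r did not pass (adjusted p = 0.545). For Col5a1 and Col5a2 it was 0.03 without wild-type array 1 and 0.48 without homozygous array 3.

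Genes that make, bind or break down collagen gave no call either. In homozygous against wild type 60.5% of all genes were above 0. Of 28 measured genes for collagen synthesis and processing, 18 were above 0 in that comparison and 0 passed. The smallest unadjusted p were those of Colgalt1 and Plod3, which add sugars to collagen hydroxylysine (log2 differences 0.17 and 0.18, SE 0.09 and 0.10), and of Pcolce2, an enhancer of procollagen C-proteinase (0.46, SE 0.29). Of 19 collagen receptor and breakdown genes, 11 were above 0 and 0 passed, led by the collagenase Mmp8 (0.20, SE 0.09). Of 15 basement membrane partners of type IV, 9 were above 0 and 0 passed. They were led by the nidogen Nid2 (-0.18, SE 0.09) and the laminin chain Lama1 (0.31, SE 0.19), a chain of the inner limiting membrane, which read 5.25, 5.83 and 6.01 in wild type, 6.07 and 5.94 in heterozygous and 5.99, 5.84 and 6.18 in homozygous samples. Lama1 was lowest on wild-type array 1, as was Col2a1.

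Of the tissue marker lists, 20 of 22 vessel genes were above 0 for homozygous against wild type, beside 60.5% of all genes. Their median was 0.09, and 0 passed. Homozygous array 1 was the highest array for 14 of the 22, and for 34.7% of all genes. The list's medians on homozygous arrays 1, 2 and 3 were 0.23, 0.02 and -0.08. The vessel genes were led by Tie1, an endothelial receptor kinase (0.58, SE 0.17). Tie1 read 3.57 to 4.64 over the arrays, near the lower end of the scale. The median differences of homozygous against wild type were 0.34 for 20 lens genes and -0.11 for 19 pigment epithelium genes. They were 0.00 for 15 stromal matrix genes and for 12 genes of cornea, iris and ciliary body, with 0 passing in each list. For heterozygous against wild type 5 of 19 pigment epithelium genes had an unadjusted limma p under 0.05, all lower, where 0.72% of all genes were. The list median was -0.33, beside -0.74 for Col8a2 and -0.47 for Col8a1 in that comparison, and the third short chain, Col10a1, differed by 0.10.

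Probe sets of a gene did not always go the same way. Of 27 members with several, 15 had the same direction in all for homozygous against wild type and 12 did not, Col4a5, Col5a2, Col8a1 and Col25a1 among the latter.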

How the data were processed

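Per the submitters' processing notes RMA made the deposited log2 expression values, for 45101 probe sets on 8 arrays. Its version and settings, and whether a ninth sample named in the design text entered it, are not given in the sources used. RMA makes the arrays' distributions alike, so changes are relative to the bulk of transcripts, and the number of arrays limits the precision. The 64 control probe sets were left out. Genes were named from the platform annotation (34945 probe sets with 1 symbol, 932 with several, 9160 with none), by brightest probe set. Group means were fitted to all 8 arrays in limma 3.58.1 (R 4.3.3, two-sided moderated test, Benjamini-Hochberg over 45037 probe sets, threshold 0.05), and SE is its moderated standard error. Tests were checked on simulated data. Correlations over arrays had exact two-sided permutation p (scipy 1.17.1), adjusted over 6 pairs. Linear sums are over each list's measured genes. Members, classes and lists were chosen with earlier results of these data known. Array values are given for the 3 smallest p (homozygous against wild type) and 3 largest SD per class, the 3 smallest p of each other comparison, the paired chains, Col2a1 and Col18a1, and up to 3 genes of a list are named by p. Other genes named were chosen after their values were seen. Alternatives were other normalizations and variance models, array weights, leaving out dim probe sets or arrays, the actin difference as a covariate and the replicate number as a block. The classed chains Col6a6 and Col28a1 were not analysed here.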

Additional observations from a re-analysis of the deposited data

How the results depend on the processing

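Every refit called 0 collagen genes in each of the 3 comparisons. The 15 single-gene differences refitted under each alternative kept their sign, but over all 42 members leaving out some 1 array turned the sign of 14 for homozygous against wild type, 21 for heterozygous against wild type and 26 for homozygous against heterozygous. Leaving out 1 array at a time gave medians over the members of 0.01 to 0.05 for homozygous against wild type (-0.09 to 0.09 fibrillar, 0.04 to 0.23 basement membrane, -0.02 to 0.04 others), 0.0052 to 0.13 for heterozygous against wild type and -0.079 to 0.082 for homozygous against heterozygous. Heterozygous against wild type was 0.091 without dim probe sets and 0.13 without the 2 arrays of discordant Nxnl1, and homozygous against heterozygous was -0.078 without the latter. For homozygous against wild type array weights gave 0.13 for fibrillar and -0.043 for other chains, leaving out dim probe sets gave 0.09, 0.22 and -0.02 for fibrillar, basement membrane and other chains, and leaving out the 2 arrays of lowest actin difference gave -0.14, 0.11 and -0.02. Correlations ran, without 1 array, from -0.87 to 0.10 for Col1a1 and Col1a2, -0.13 to 0.82 for Col1a1 and Col3a1, -0.10 to 0.68 for Col6a1 and Col6a2, -0.24 to 0.080 for Col9a1 and Col9a2, 0.27 to 0.74 for Col4a1 and Col4a2 and 0.03 to 0.48 for Col5a1 and Col5a2. Without the 2 farthest arrays the sign turned for Col1a1 and Col3a1 (-0.30), Col6a1 and Col6a2 (-0.22) and Col9a1 and Col9a2 (0.24). Without the 2 arrays of lowest actin difference it turned for Col1a1 and Col3a1 (-0.043), Col5a1 and Col5a2 (-0.23) and Col9a1 and Col9a2 (0.30), and with levels centred on the group mean for Col1a1 and Col3a1 (-0.024). The causes were not tested. With the replicate number as a block 0 members were called, and the median of heterozygous against wild type was 0.05. Same-numbered wild-type and homozygous arrays deviated from their group means with correlations of 0.62, 0.23 and -0.03. Wild-type array 3 and homozygous array 2, of different number, gave 0.52. Deviations within a group sum to 0 and are bound to each other. These values therefore do not settle whether the numbers pair the samples.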

Other observations

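A few members resembled each other or other matrix genes over the 8 arrays, as r ranked over all genes with a range of at least 0.5. The points share the arrays and no test was made. Col2a1 and Col4a2 were among each other's 8 most like genes (r = 0.932), and Lama1 was among those of Col2a1 (r = 0.907). Adgra2, an adhesion receptor of vessel growth in the brain, was most like Col4a2 (r = 0.958), reading 7.02, 7.23 and 7.17 in wild type, 7.33 and 7.30 in heterozygous and 7.27, 7.21 and 7.55 in homozygous samples. Col4a5 was among the 8 most like Col6a1 (r = 0.92). Of the 8 genes most like Col3a1, 3 were fast muscle genes, Mylpf (r = 0.941), Tnni2 (r = 0.931) and Atp2a1 (r = 0.925), and all rest on wild-type array 1.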
